A study of Mus musculus with 9 samples.

Results

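The genes described here are 4 neurotrophic ligands (Bdnf, Ntf3, Gdnf and Cntf) and 5 receptors (Ntrk2, Ntrk3, Ngfr, Gfra1 and Ret). They were taken by symbol from the deposited expression table, which holds all 9 of them among 17187 genes. Levels are given as FPKM, a fragment count scaled to transcript length and sequencing depth. The samples were punches of the medullary brainstem of wild-type mice ("wt" in the labels), taken around the raphe nuclei 3 weeks after AAV2, an adeno-associated virus, had been delivered stereotactically to the cortex. The virus carried GFP in the 4 libraries called GFP 1 to 4 (treatment "AAV2-GFP") and hyper-interleukin-6 in the 5 libraries called HIL6 1 to 5 (treatment "AAV2-HIL6-GFP"). Hyper-interleukin-6, a fusion of interleukin-6 with the soluble form of its receptor, signals through gp130. By the labels, batch 1 holds GFP 1 to 3 and HIL6 1 to 3, and batch 2 holds GFP 4 with HIL6 4 and 5. The labels give no age, sex or viral promoter. Whether each library came from its own animal is not stated, and the p-values below reflect the spread among libraries, which may be technical. The injected tissue, the cortex, is not the tissue that was sequenced, and the transgene was not analysed here.

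Neurotrophins are secreted proteins that bind Trk receptor tyrosine kinases and the shared receptor p75NTR, and they act on the survival, growth and synapses of neurons. Bdnf encodes the main ligand of TrkB (Ntrk2), Ntf3 encodes neurotrophin-3, the main ligand of TrkC (Ntrk3), and Ngfr encodes p75NTR, while Gdnf encodes a ligand that binds the membrane-anchored co-receptor GFRα1 (Gfra1) and with it engages the kinase Ret. Cntf encodes ciliary neurotrophic factor, a cytokine best known from Schwann cells and astrocytes, whose receptor contains gp130, the same signalling subunit that hyper-interleukin-6 uses.

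Bdnf is read from several promoters with alternative first exons. Promoter windows from RefSeq (build GRCm38.p6, 250 bases before to 50 after an annotated start) were matched by symbol for 7 of the 9 members, 15 windows in all, of which 7 belong to Bdnf. Because hyper-interleukin-6 acts through the transcription factor STAT3, the windows were searched for the palindromic STAT-type motif TTCNNNGAA. Because Bdnf is a textbook target of the factor CREB, they were also searched for TGACGT, the core of a cyclic AMP response element. Both strands were searched, and neither motif overlaps the other in these windows. The STAT-type letters were found in 1 of the 15 windows, and in 8.30% of the 32851 windows of all genes. In that Bdnf window they begin 122 bases before the start, and the capitals mark them.
Bdnf promoter window, chr2:109674450-109674749, + strand: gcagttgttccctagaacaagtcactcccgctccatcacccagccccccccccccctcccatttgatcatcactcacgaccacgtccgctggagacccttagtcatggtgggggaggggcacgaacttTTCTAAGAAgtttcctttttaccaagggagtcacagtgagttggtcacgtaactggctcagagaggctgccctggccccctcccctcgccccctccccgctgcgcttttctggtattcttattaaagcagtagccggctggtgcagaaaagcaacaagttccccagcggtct
TGACGT, as its reverse complement ACGTCA, was found in 2 of the 15 windows and in 7.51% of all windows. It begins 36 bases before another Bdnf start and 51 bases before a Gdnf start, and the capitals mark it in both.
Bdnf promoter window, chr2:109692186-109692485, + strand: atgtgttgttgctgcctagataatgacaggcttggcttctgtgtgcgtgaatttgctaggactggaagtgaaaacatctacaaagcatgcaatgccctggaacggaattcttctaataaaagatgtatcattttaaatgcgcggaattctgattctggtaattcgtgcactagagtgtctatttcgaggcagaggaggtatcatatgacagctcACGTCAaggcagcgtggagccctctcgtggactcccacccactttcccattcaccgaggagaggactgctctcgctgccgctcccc
Gdnf promoter window, chr15:7809798-7810097, + strand: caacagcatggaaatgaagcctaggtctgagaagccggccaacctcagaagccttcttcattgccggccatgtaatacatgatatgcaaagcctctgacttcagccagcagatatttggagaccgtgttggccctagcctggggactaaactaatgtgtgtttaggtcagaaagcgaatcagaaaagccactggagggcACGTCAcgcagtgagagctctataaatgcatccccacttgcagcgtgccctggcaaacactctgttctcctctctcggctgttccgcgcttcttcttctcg
A match describes letters in a window and does not show a bound site. The table has 1 value per gene, so transcripts from these starts could not be measured apart.

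The tissue carried the markers of its label. The summed level of 4 Hox genes of the hindbrain was 19.6 to 45.8 FPKM, and that of 3 cortical genes was 0.646 to 3.96 FPKM. The RNA of cell type markers differed between libraries. The 5 serotonergic genes summed to between 28.5 FPKM in HIL6 1 and 105 FPKM in GFP 1, and the 8 motor neuron genes to between 12.2 and 65.7 FPKM. Pituitary transcripts summed to 78.7 FPKM in GFP 1 and 31.8 FPKM in HIL6 4, and to no more than 7.39 FPKM elsewhere. The summed level of 5 microglial genes did not overlap between groups, at 41.5 to 44.3 FPKM in the GFP group and 47.5 to 61.2 FPKM in the HIL6 group. All 5 had a log2 difference above 0 and 0 were called by limma. At an unadjusted p under 0.05 there were 4 of the 5, against 3.89% of all genes tested. Of single genes tested, 0.759% had groups that did not overlap. The part of the microglial genes in the levels below was not tested. In bulk tissue, fewer cells of a type and less RNA per cell cannot be told apart. Relative depth, recovered from low values of 2279 genes with 1 transcript, was 31.7 to 38.6 scaled fragments (1e6) for the batch 1 libraries and 38.5 to 46.6 for those of batch 2.

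**Figure D1:**
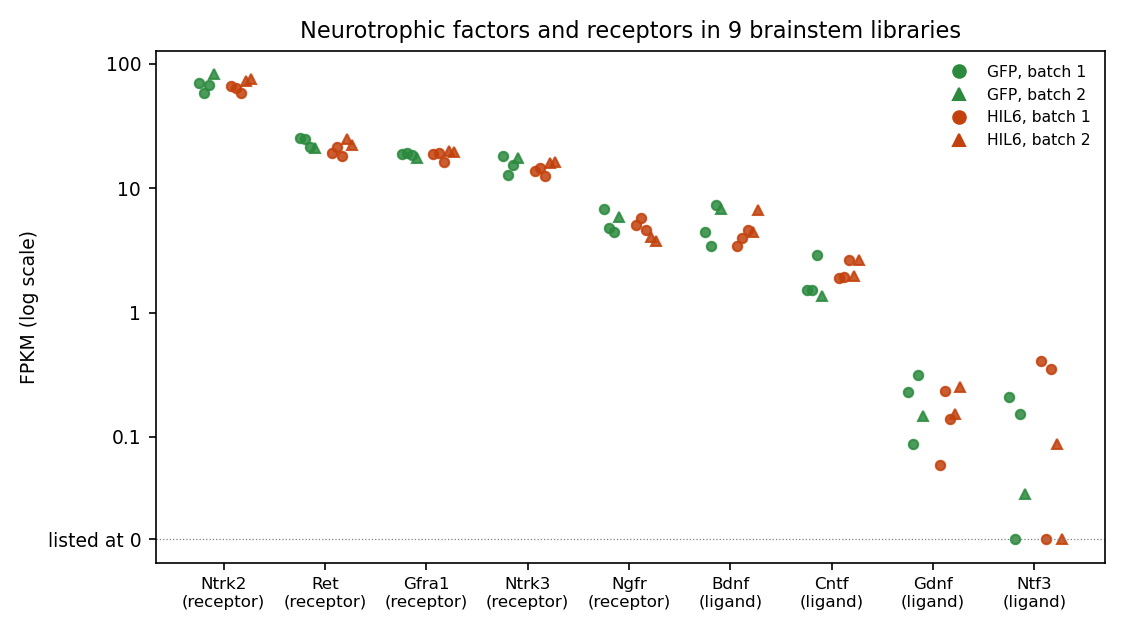
Level of each of the 9 members in each library, in FPKM on a log axis, with the GFP and HIL6 groups and the batches marked. The 4 receptors other than Ngfr lie above every ligand, and Ntf3 and Gdnf lie below 0.5 FPKM in all 9 libraries.

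Receptor transcripts were more abundant than those of the ligands. Summed per library, the 5 receptors came to 109.9 to 144 FPKM and the 4 ligands to 5.03 to 10.7 FPKM, and the receptor sum was 11.9 to 23.7 times the ligand sum. Ntrk2 alone made up 48.4% to 57.2% of the receptor sum, and Bdnf made up 59.1% to 81.3% of the ligand sum. From high to low by mean level, the order was Ntrk2, Ret, Gfra1, Ntrk3, Ngfr, Bdnf, Cntf, Gdnf and Ntf3. FPKM is scaled by transcript length, so these levels can be set side by side. Of all genes in the table, 92.8% had a lower mean level than Ntrk2, 46.6% a lower one than Bdnf, 33.0% a lower one than Cntf and 10.1% a lower one than Gdnf. The ranges over libraries overlapped between Ret and Gfra1, Gfra1 and Ntrk3, Ngfr and Bdnf, and Gdnf and Ntf3, so these neighbours in the order did not separate. Within a library, Ret was above Gfra1 in 9 of 9 and Gfra1 was above Ntrk3 in 8 of 9, whereas Ngfr was above Bdnf in 5 of 9.

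Ntrk2 (chr13:58806569-59133970, + strand, GRCm38, GENCODE M21) encodes TrkB, which neurons and astrocytes both express. Its level was 70.3, 57.7, 67.3 and 82.6 FPKM in GFP 1 to 4, and 66.3, 64.2, 58.5, 73.1 and 74.8 FPKM in HIL6 1 to 5. The groups overlapped, and the 3 batch 2 libraries were the highest of all 9. The annotation gives Ntrk2 10 transcripts, 7 of them coding, and the gene value adds full-length and truncated TrkB, which cannot be told apart here. Ntrk3 (chr7:78175959-78738012, - strand) encodes TrkC and likewise has kinase and truncated forms. It stood at 18.0, 12.8, 15.2 and 17.6 FPKM in the GFP libraries and at 13.6, 14.5, 12.5, 16.0 and 16.4 FPKM in the HIL6 libraries. The highest library was GFP 1 and the lowest HIL6 3, and the groups overlapped. Ntrk2 was 3.90 to 4.87 times Ntrk3 within a library.

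Ngfr (chr11:95568818-95587735, - strand) encodes p75NTR, a receptor without a kinase that can pair with Trk receptors or with sortilin. Its level was 6.76, 4.79, 4.42 and 5.85 FPKM in GFP 1 to 4 and 5.03, 5.77, 4.63, 4.08 and 3.76 FPKM in HIL6 1 to 5. The highest value was in the GFP group and the lowest in the HIL6 group, with overlap between them. Ngfr has 1 annotated transcript, and 460 to 848 fragments stood behind its values, a counting error of 3.4% to 4.7%.

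Ret (chr6:118151745-118197718, - strand) encodes the receptor tyrosine kinase of the GDNF family. Its level was 25.2, 24.7, 21.4 and 21.04 FPKM in the GFP libraries and 19.2, 21.6, 18.1, 24.9 and 22.4 FPKM in the HIL6 libraries. GFP 1 was the highest and HIL6 3 the lowest, and the groups overlapped. Gfra1 (chr19:58235604-58455909, - strand) encodes the co-receptor that binds GDNF. It was the steadiest member, at 19.0, 19.3, 18.5 and 17.3 FPKM in the GFP libraries and 18.8, 19.0, 16.3, 19.9 and 19.5 FPKM in the HIL6 libraries. Its highest library was 1.22 times its lowest, against 1.39 times for Ret and 2.13 times for Bdnf. The ratio of Ret to Gfra1 was 1.25 ± 0.0757 (SD, n = 4) in the GFP group and 1.13 ± 0.0806 (SD, n = 5) in the HIL6 group, and the groups overlapped.

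Bdnf (chr2:109674700-109727007, + strand, 11 transcripts) encodes brain-derived neurotrophic factor and was the most abundant of the 4 ligands. Its level was 4.42, 3.42, 7.27 and 6.75 FPKM in GFP 1 to 4, and 3.43, 3.96, 4.60, 4.43 and 6.66 FPKM in HIL6 1 to 5. GFP 3, GFP 4 and HIL6 5 stood above 6 FPKM, and the other libraries of both groups lay below 5 FPKM. Ntrk2 was 9.26 (GFP 3) to 19.3 (HIL6 1) times Bdnf, a ratio of 13.6 ± 3.50 (SD, n = 4) in the GFP group and 15.2 ± 3.23 (SD, n = 5) in the HIL6 group. The ratio overlapped between the groups. Ngfr to Bdnf ran from 0.565 in HIL6 5 to 1.53 in GFP 1 and was the 1 receptor to ligand pair of the 5 examined in which the receptor was not above the ligand in every library.

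Cntf (chr19:12763660-12765632, - strand, 1 transcript) stood at 1.52, 1.53, 2.92 and 1.37 FPKM in GFP 1 to 4 and at 1.91, 1.92, 2.62, 1.96 and 2.67 FPKM in HIL6 1 to 5. All 5 HIL6 libraries were above 3 of the 4 GFP libraries, and the highest value of all was GFP 3. The values stand for 45 to 92 fragments, a counting error of 10.4% to 14.9%. The exact Poisson 95% interval of GFP 3, the highest library, was 2.33 to 3.62 FPKM. It lay above that of GFP 4, the lowest library, at 1.03 to 1.78 FPKM, a pair taken because they are the extremes. These intervals cover counting error only. A transcript of Zfp91, annotated as a target of nonsense-mediated decay, runs through the whole of Cntf on the same strand, and Zfp91 stood at 34.5 to 41.7 FPKM, so fragments of the pair may not be separable and the Cntf level is uncertain. Of 6 Schwann cell markers, 5 were found, with a summed level of 2.62 to 4.39 FPKM in the GFP group and 1.76 to 3.98 FPKM in the HIL6 group. Most of this was Ncmap, at 1.35 to 3.85 FPKM over the 9 libraries, and it alone reached a mean of 0.5 FPKM. The 7 astrocyte markers summed to 768 to 1012 FPKM in the GFP group and 982 to 1490 FPKM in the HIL6 group. These sums overlap between the groups. Gfap, at 41.7 to 227 FPKM in the GFP group and 257 to 564 FPKM in the HIL6 group, did not overlap, like 0.759% of all genes tested. The other 6 summed to 726 to 825 FPKM and 725 to 927 FPKM, which overlap. The 7 markers had a median log2 difference of 0.062, with 5 above 0 and 2 below and 0 called by limma. At an unadjusted p under 0.05 there were 2 of the 7, against 3.89% of all genes tested. The part of these markers in the Cntf level was not tested.

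Gdnf and Ntf3 were close to the floor of the measurement. Gdnf (chr15:7810846-7837575, + strand, 1 transcript) stood at 0.229, 0.0883, 0.315 and 0.148 FPKM in the GFP libraries and at 0.0596, 0.236, 0.139, 0.153 and 0.252 FPKM in the HIL6 libraries. These are 26, 12, 35 and 23 fragments in GFP 1 to 4 and 7, 28, 17, 25 and 34 fragments in HIL6 1 to 5. The fragment numbers rest on the 1 transcript of GENCODE M21. RefSeq gave Gdnf 2 promoter windows, and the Gdnf window printed above ends at 7810097, before that transcript begins. Gdnf was detected in every library, with a counting error of 16.9% to 37.8%, and the groups overlapped. Gfra1 was 58.7 (GFP 3) to 315 (HIL6 1) times Gdnf, and Ret 67.9 (GFP 3) to 322 (HIL6 1) times. The widest ratios thus came from the library with 7 Gdnf fragments.

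Ntf3 (chr6:126101412-126166910, - strand, 3 transcripts) was listed at 0.210, 0, 0.154 and 0.0346 FPKM in GFP 1 to 4 and at 0.408, 0, 0.349, 0.0876 and 0 FPKM in HIL6 1 to 5. The 3 libraries listed at 0 came from both groups, and a listed 0 can be a failed estimate. Where Ntf3 was above 0, the values stand for about 1.8 to 18 fragments, depending on the transcript length used. In the 6 libraries with a value, Ntrk3 was 33.4 to 507 times Ntf3, where the 507 is GFP 4 with about 1.8 to 2 Ntf3 fragments, and the next highest was 183 in HIL6 4.

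**Figure D2:**
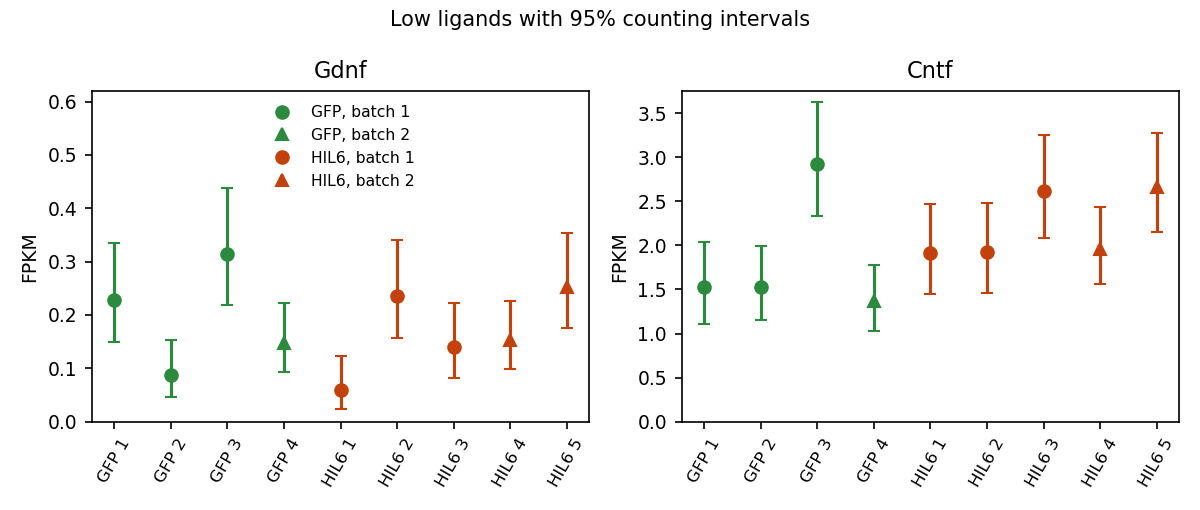
Gdnf and Cntf in each library in FPKM, with exact Poisson 95% intervals from the recovered fragments, which cover counting error only. GFP 3 is the highest library for both genes, and HIL6 1, with 7 fragments, is the lowest for Gdnf.

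**Figure D3:**
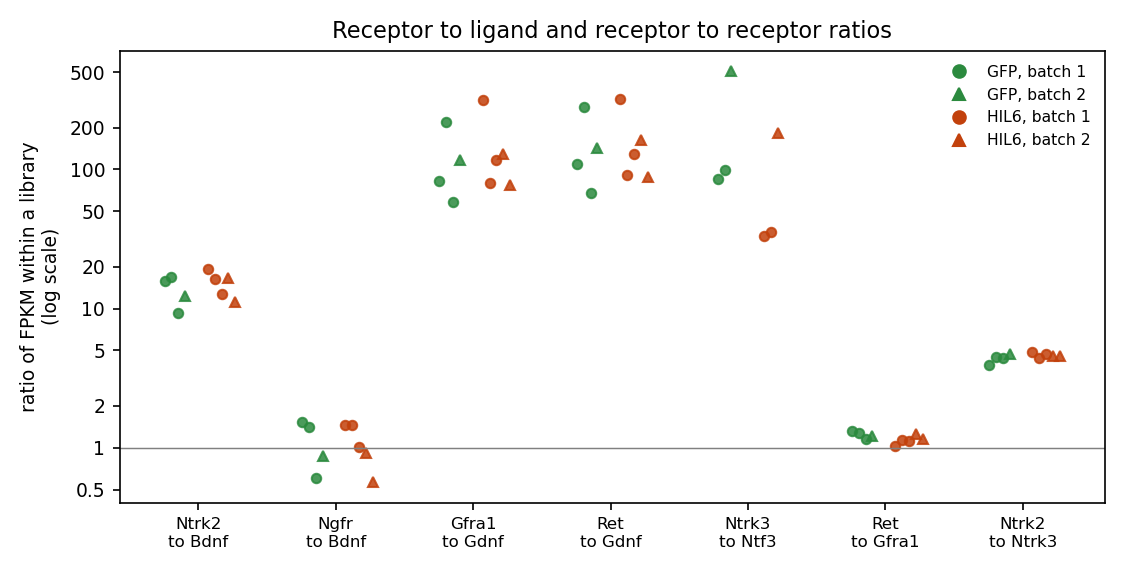
Ratio of each receptor to its ligand and of receptor pairs in each library, on a log axis, by group. The GFP and HIL6 libraries overlap in every ratio, and Ngfr to Bdnf is the ratio that crosses 1.

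The comparison of HIL6 with GFP asked whether the brainstem levels of these genes differed with the cortical delivery of the cytokine. None of the members passed the test. For Bdnf the means were 5.47 ± 1.84 FPKM (SD, n = 4) in the GFP group and 4.61 ± 1.23 FPKM (SD, n = 5) in the HIL6 group, and the fold of HIL6 to GFP with batch in the model was 0.835 (95% interval 0.617 to 1.13). For Cntf the means were 1.84 ± 0.730 FPKM (SD, n = 4) and 2.22 ± 0.392 FPKM (SD, n = 5), with a fold of 1.20 (0.894 to 1.61). By limma with Benjamini-Hochberg adjustment over 13958 genes, the adjusted p was 0.999 for every member that passed the filter of a mean of 0.5 FPKM, and 7 of the 9 passed it. Of those 7, 0 were called, at a background of 0% called among the 13958 genes. At an unadjusted p under 0.05 there were likewise 0 of the 7, against 543 of all genes, or 3.89%. None of the 9 members had groups that did not overlap, against 0.759% of the genes tested. A p-value that misses the threshold does not show that levels were equal.

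Folds are on the log2(FPKM + 0.5) scale, which understates changes of low genes. For the receptors the intervals were narrower than for the ligands. The fold for Ntrk2 was 0.947 (0.853 to 1.05), for Ntrk3 0.901 (0.781 to 1.04) and for Ret 0.909 (0.782 to 1.06). The Ngfr fold was 0.882 (0.709 to 1.10), with means of 5.46 ± 1.06 FPKM (SD, n = 4) and 4.65 ± 0.792 FPKM (SD, n = 5). For Gfra1, with 18.5 ± 0.862 FPKM (SD, n = 4) and 18.7 ± 1.43 FPKM (SD, n = 5), the fold was 1.01 (0.903 to 1.12), and its side of 1 changed with the scaling and the libraries used, so no direction is given. Of the other 6 tested, the log2 difference lay below 0 for 5 and above it for 1, Cntf, here and under every alternative run. The alternatives reuse the same libraries and are not independent of each other. With Gfra1 counted, 5 of the 7 lay below 0 and 2 above it in this fit, beside 7132 and 6826 of all 13958 genes. Some members were correlated with each other, as given below, so their signs are not independent. The median of all 7 members was -0.14 beside -0.0026 over all genes. Gdnf and Ntf3 were under the filter and were compared by a two-sided exact permutation test within batches, over 60 arrangements that cannot give a p below 0.0167. The exact p was 0.667 for Gdnf and 0.45 for Ntf3, neither adjusted.

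**Figure D4:**
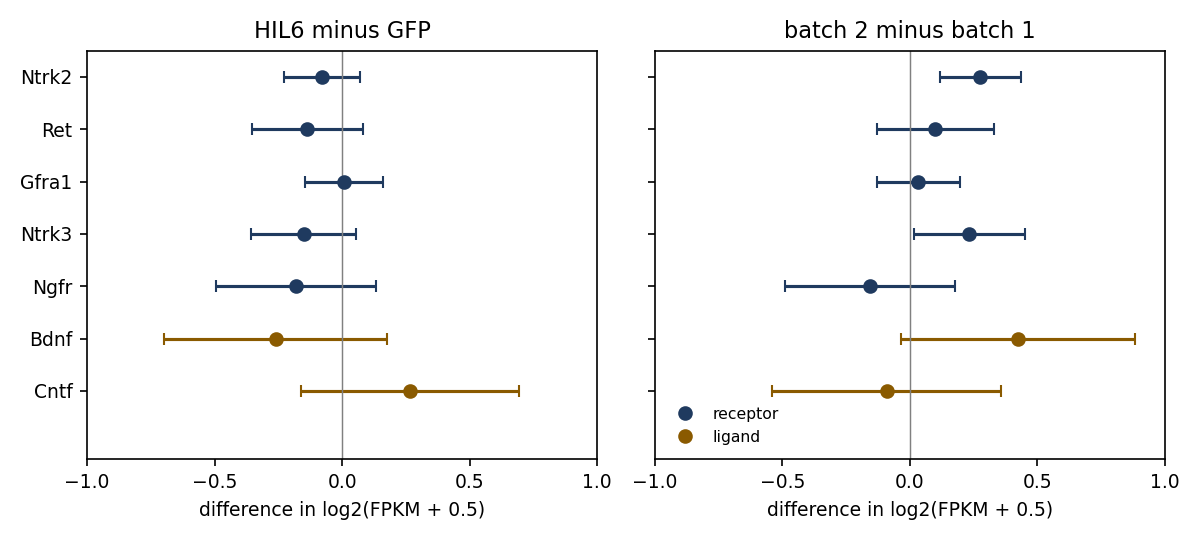
Difference in log2(FPKM + 0.5) of HIL6 minus GFP and of batch 2 minus batch 1 for the 7 members tested, with 95% intervals from limma. Every interval for HIL6 against GFP spans 0, and between batches the intervals of Ntrk2 and Ntrk3 lie above 0, of which Ntrk2 passed the adjusted test.

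Within batches, the Ret mean of the HIL6 libraries lay below that of the GFP libraries in batch 1 and above it in batch 2. In batch 1 the Ret mean was 23.8 FPKM over 3 GFP libraries and 19.6 FPKM over 3 HIL6 libraries, and in batch 2 it was 21.04 FPKM in the 1 GFP library and 23.6 FPKM over 2 HIL6 libraries. The interaction of treatment with batch was 0.43 ± 0.17 (log2, SE), with an unadjusted p of 0.0318 and an adjusted p of 1.0 by limma, so it did not pass. The interaction called 2 of all 13958 genes, or 0.0143%, and 0 of the 7 members. For Cntf the HIL6 mean was above the GFP mean in both batches, at 2.15 against 1.99 FPKM in batch 1 and 2.31 against 1.37 FPKM in batch 2. Without GFP 3 the Cntf difference was 0.45 (log2), with an adjusted p of 0.949. The Bdnf mean of the HIL6 libraries was below that of the GFP libraries in both batches, at 3.996 against 5.04 FPKM in batch 1 and 5.54 against 6.75 FPKM in batch 2. The batch 1 order rests on GFP 3, without which the GFP mean was 3.92 FPKM over 2 libraries, below the HIL6 mean, and the Bdnf difference over both batches was -0.086 in place of -0.26 (log2).

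Between batches, Ntrk2 rose by 0.28 ± 0.071 (log2, SE) in batch 2, a fold of 1.21 (1.09 to 1.35), with an adjusted p of 0.0238 by limma. It was the 1 member of 7 called in this contrast, beside a background of 22.5% of all genes, so the share among the members was no larger than among other genes. The batch 2 libraries, at 73.1 to 82.6 FPKM, did not overlap those of batch 1, which reached 70.3 FPKM. Il6st and Lifr, described below, did not overlap between batches either, and the share of such genes over the whole table was not counted. With all libraries scaled to an equal sum the difference was 0.17 (adjusted p = 0.172), and without GFP 4, HIL6 4 or HIL6 5 it was 0.23, 0.30 and 0.28 (adjusted p = 0.175, 0.0652 and 0.064 by limma). Without GFP 1 and HIL6 4, the libraries with the most pituitary RNA, the adjusted p was 0.0776. The differences for Ntrk3 and Bdnf were 0.23 and 0.42 (adjusted p = 0.109 and 0.161) and passed when 1 library was left out, Ntrk3 at 0.28 (adjusted p = 0.037) without GFP 1 and Bdnf at 0.52 (adjusted p = 0.0404) without GFP 3. Of 7 astrocyte markers, 3 were also called higher in batch 2 and 0 lower, beside 11.4% of all genes called higher. Without Gfap they summed to 725 to 907 FPKM in batch 1 and 825 to 927 FPKM in batch 2, and with it to 768 to 1300 FPKM and 898 to 1490 FPKM, and the part of astrocyte content in the Ntrk2 difference was not tested.

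Other ligands and receptors of these families set the members in context. Nrtn (neurturin) was the highest other ligand at 3.16 to 9.43 FPKM, a range that overlapped that of Bdnf, while Ntf5 (neurotrophin-4) stood at 0.0291 to 0.156 FPKM. Among receptors, Cntfr, the binding subunit for CNTF, stood at 67.9 to 99.9 FPKM, Sort1 (sortilin), a partner of p75NTR, at 56.8 to 74.5 FPKM and Gfra4 at 23.8 to 34.8 FPKM. The range of Cntfr overlapped that of Ntrk2, while its ligand Cntf stayed below 3 FPKM. Nrtn, in contrast, was not below Gfra2, the co-receptor of neurturin, which stood at 4.49 to 5.45 FPKM. Their ranges overlapped, and the mean was 5.955 FPKM for Nrtn and 5.004 FPKM for Gfra2.

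**Figure D5:**
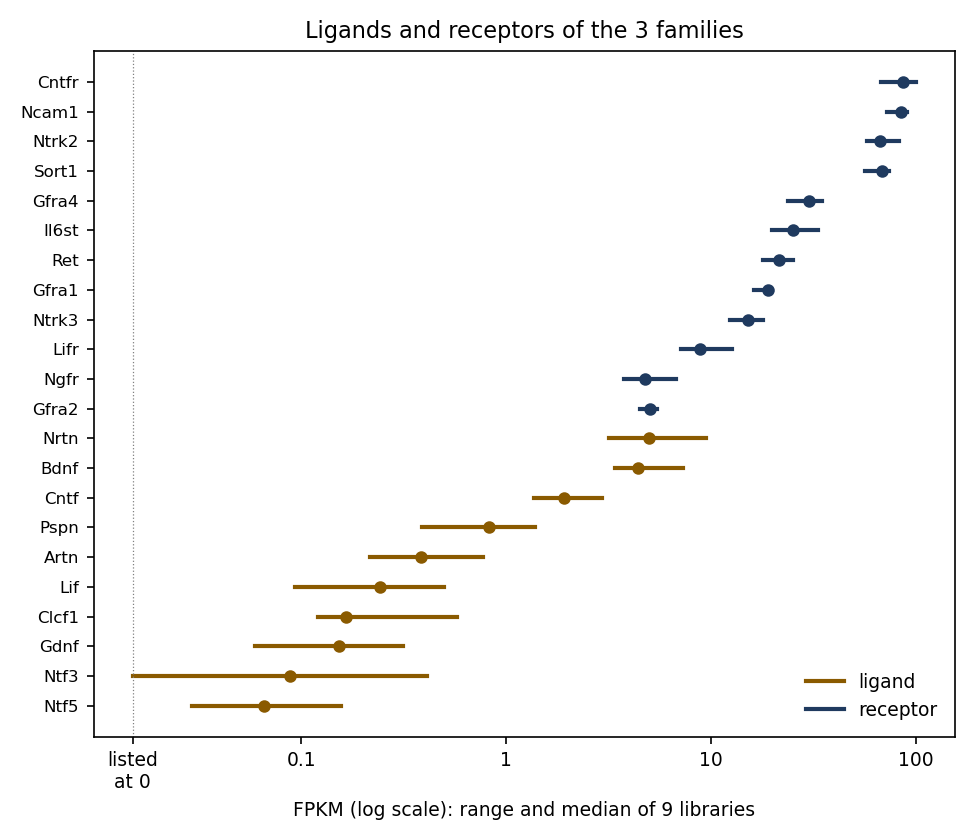
Lowest to highest level over the 9 libraries, with the median, for ligands and receptors of 3 families of trophic factors, in FPKM on a log axis. Nrtn and Bdnf are the highest ligands, and Ntrk2, Cntfr, Ncam1 and Sort1 the highest receptors.

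Among 102 genes listed in 8 groups around these pathways, 100 were found under their symbol or an older one and 87 were tested. None was called in either direction for HIL6 against GFP. Of the 87, 5 had an unadjusted p under 0.05, against 543 of all 13958 genes tested, or 3.89%. In the list of other neurotrophins and their receptors, 0 of 9 tested passed, with 2 above 0 and 7 below and a median of -0.088. Sorcs3 and Nradd, relatives of sortilin and p75NTR, and the p75NTR interactor Maged1 had log2 differences of -0.19, -0.24 and -0.088.

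In the GDNF family list, 0 of 5 tested passed, with 3 above 0 and 2 below and a median of 0.006. Nrtn stood at 5.601 ± 2.69 FPKM (SD, n = 4) in the GFP group and 6.24 ± 1.64 FPKM (SD, n = 5) in the HIL6 group, and was lower in batch 2 (-0.71, adjusted p = 0.026 by limma). Gfra4, the co-receptor of persephin, was at 29.2 ± 4.61 and 29.4 ± 3.74 FPKM and also lower in batch 2 (-0.34, adjusted p = 0.0108). Gfra2, the co-receptor of neurturin, had a log2 difference of -0.049, and Ncam1, a cell adhesion molecule that can bind GDNF, one of -0.051. In the list of the CNTF receptor and its other ligands, 0 of 5 passed, with 4 above 0 and 1 below and a median of 0.074. Cntfr was at 82.9 ± 8.78 FPKM in the GFP group and 84.7 ± 12.4 FPKM in the HIL6 group, and was lower in batch 2 (-0.33). Il6st, which encodes gp130, and Lifr, its partner in the CNTF receptor, were higher in batch 2 (0.42 and 0.52). Between batches, 2 of these 5 were called higher and 1 lower, and 0 and 2 of the 5 in the GDNF family list. Of all genes tested, 22.5% were called between batches, and genes of other lists, such as Furin and Tgfb1 (-0.33 and -0.49), were called as well. The oncostatin M receptor Osmr was at 0.882 ± 0.299 and 1.31 ± 0.337 FPKM (unadjusted p = 0.078 by limma).

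The list of neurotrophin processing and release had 0 of 11 passing, with 6 above 0 and 5 below and a median of 0.006. Furin, a protease that cleaves pro-neurotrophins, was at 8.49 ± 0.841 FPKM in the GFP group and 9.07 ± 1.38 FPKM in the HIL6 group. The related proteases Pcsk2 and Pcsk7 had log2 differences of -0.14 and 0.51, and neuroserpin (Serpini1), an inhibitor of tissue plasminogen activator, one of -0.20. In the list of adaptors and signalling, 0 of 21 passed, with 5 above 0 and 16 below and a median of -0.038. Sos2, a Ras exchange factor, was at 14.1 ± 1.39 and 16.0 ± 1.13 FPKM, and Dok4, a docking protein of Ret, at 1.96 ± 0.422 and 1.24 ± 0.422 FPKM (unadjusted p = 0.016 and 0.0261 by limma). The adaptor Shc3 and the TrkB partner Slitrk5 had log2 differences of -0.22 and -0.12. Of the genes for endocytosis and transport of receptors, 0 of 9 passed, with 2 above 0 and 7 below and a median of -0.029. The 4 with the smallest p, Hap1, Rab5a, Gipc1 and Kif1a, had log2 differences of -0.078, -0.065, 0.058 and -0.056.

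Response genes of neurotrophin signalling gave 0 of 12 passing, with 7 above 0 and 5 below and a median of 0.013. Nptx2, a pentraxin induced by activity, was at 8.94 ± 0.787 FPKM in the GFP group and 7.28 ± 1.43 FPKM in the HIL6 group. The immediate early gene Fos was at 5.98 ± 1.53 and 7.77 ± 1.49 FPKM, and Vgf, a secreted product induced by neurotrophins, at 98.5 ± 10.1 and 88.0 ± 6.13 FPKM. The neuropeptide gene Npy had a log2 difference of -0.46. Among other trophic factors, 0 of 15 passed, with 8 above 0 and 7 below and a median of 0.003. Cdnf, a neurotrophic factor of the endoplasmic reticulum, was at 1.88 ± 0.450 and 1.14 ± 0.494 FPKM (-0.57 ± 0.23, unadjusted p = 0.0293 by limma), and midkine (Mdk) at 33.0 ± 3.81 and 39.6 ± 9.31 FPKM. Nrg1 (neuregulin 1) and Tgfb1 had log2 differences of -0.27 and 0.20.

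Similarity of pattern was described by Pearson's r of log2(FPKM + 0.5) over the 9 libraries with batch means removed. The points share their libraries and scaling, and the highest of 13958 values is high by selection. The highest r of the member pairs were those of Ntrk2 with Ntrk3 (0.861) and of Gfra1 with Ret (0.738). Next came Ntrk3 with Ngfr (0.669) and Ntrk2 with Ngfr (0.651). The share of all gene pairs that reach such values was not computed. Cntf and Ngfr had the most negative r of the member pairs (-0.781). Of all tested genes, those most like Ntrk2 were Arfgef2 (r = 0.973), Ppm1l (0.972) and Glcci1 (0.970), and those most like Ntrk3 were Usp13 (0.968), Uba7 (0.963) and Csmd1 (0.962). For Ngfr they were Kdr (0.952), Zfp329 (0.943) and Nt5dc3 (0.940). Bdnf was followed most closely by Jph1 (0.969), Prickle1 (0.949) and Zfp667 (0.946), and Cntf by Ppp1r16b (0.966), Klf15 (0.962) and March8 (0.960). Closest to Ret were Mcam (0.956), Palm3 (0.946) and Bmper (0.946), and closest to Gfra1 were Tbcd (0.934), Calca (0.914) and 9130401M01Rik (0.914).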

How the data were processed

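RNA from 9 libraries of mouse medullary brainstem was analysed from the deposited table of FPKM per gene, 1 column per library and no pooling. The submitters' processing notes name mm10, kallisto and DESeq2. Versions, roles, the annotation and the way the authors scaled FPKM between libraries are not stated there, and an isoform assignment like that of kallisto can list a gene at 0. Per the labels' protocols, the library kit was stranded and selected poly(A) RNA.

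Values were taken to log2(FPKM + 0.5). The 13958 genes of 17187 whose mean reached 0.5 FPKM entered a linear model of treatment and batch (limma 3.58.1, R 4.3.3, trended prior variance, 6 residual degrees of freedom). Tests were two-sided, and p-values were adjusted by Benjamini-Hochberg across those genes, with a threshold of 0.05. An interaction of treatment and batch was fitted in the same way. Members under the filter were compared by an exact permutation test within batches. Fragments were recovered for genes with 1 transcript from the step of low values, of which 96.5% to 97.8% were whole within 0.05. Fragments of genes with several transcripts were not recovered, so no count test was run. The numbers given for Ntf3 are conversions of its FPKM that assume the shortest or the longest of its 3 annotated transcripts. Ratios and sums were described without a test. Named genes are the members, up to 4 of each list by smallest p, and the 3 genes most similar to each member that passed the filter. Some genes that this rule takes are not reported here. Chosen after the values were seen are Sort1, Ntf5, Lifr and the marker genes. Members and lists were chosen with earlier results of these data known. Same-numbered libraries of batch 1 did not pair (correlations 0.019, -0.106 and 0.27). Alternatives changed the pseudocount, filter, scaling, batch term, weights and libraries. The fit was tested on simulated data. Coordinates are from GENCODE M21 on GRCm38, which matched 16429 symbols.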

Additional observations from a re-analysis of the deposited data

Results flagged for a closer look

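In the GFP group, Cntf in GFP 3 (2.92 FPKM) stood far from the other 3 libraries (1.37 to 1.53 FPKM), with a gap to the nearest of 0.895 of the group's range. In the HIL6 group, the ratio of Gfra1 to Gdnf in HIL6 1 was 315, against 77.5 to 130.0 in the other 4, with a gap of 0.778 of the range, and rests on 7 Gdnf fragments. These are 2 of 90 groups of values examined with Dixon's criterion, which chance alone passes in about 1 of 20.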

How the results depend on the processing

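No alternative called a member for HIL6 against GFP. Over 22 alternatives the log2 difference of Bdnf lay between -0.40 and -0.086, that of Cntf between 0.13 and 0.45, of Ntrk2 between -0.16 and -0.033, of Ntrk3 between -0.22 and -0.064, of Ngfr between -0.34 and -0.030 and of Ret between -0.27 and -0.005, and the lowest adjusted p of any member by limma was 0.315 (Ngfr with library weights). Gfra1 was -0.001 at equal sums, -0.071 in batch 1 alone, -0.004 with the replicate block and -0.071 to 0.064 with each library left out in turn. With each library left out, Il6st was -0.012 (without GFP 2) to 0.101, and Kif1a was 0.019 without GFP 1 and HIL6 4, on the other side of 0 than with all libraries. The count of all genes called was 0, and 9 with library weights and 0 to 2 with each library left out (2 without HIL6 2), and the replicate block, whose numbers did not pair the libraries, gave 0 called and 654 at an unadjusted p under 0.05. The count of members called between batches was 1, and 0 at equal sums, 0 without GFP 1 and HIL6 4, and 0 to 2 with each library left out. Leaving out GFP 1 and HIL6 4 (most pituitary RNA) or GFP 2 and HIL6 1 (least serotonergic RNA) was chosen after seeing the data; each gave 0 genes called for HIL6 against GFP. The causes were not tested. Depth limits Ntf3 and Gdnf, and with 4 against 5 libraries the intervals of Bdnf and Cntf are wide.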
